A study of Mus musculus and Homo sapiens with 8 samples.

Results

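The subject is 10 long non-coding RNAs in HepG2, an established human liver carcinoma cell line, after arsenite. The rule lists 10 Ensembl identifiers and their names, NEAT1, MALAT1, H19, GAS5, SNHG1, TUG1, KCNQ1OT1, NORAD, HULC and DLEU2. All 10 were found among the 60675 rows of the deposited count table. They were chosen by identifier with the counts of these same HepG2 libraries, scaled to library size, already known. Their levels and changes are therefore given as a description, and the count of changed members supports nothing further. HepG2 cells at 25 population doublings received arsenite for 24 h in 2 samples or water for 24 h in 2 control samples, and total RNA was sequenced with a TruSeq RNA kit. The labels state 5 nM on the arsenite samples and also on those given water. Separate cultures are not mentioned in the labels, and the spread behind each p-value may therefore be technical.

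Long non-coding RNAs are transcripts that act without being translated. NEAT1 is the scaffold of nuclear paraspeckles, bodies that grow in many stress responses, and MALAT1 lies in nuclear speckles, where splicing factors are stored. NORAD holds Pumilio proteins in the cytoplasm. GAS5 and SNHG1 carry small nucleolar RNAs in their introns, and their spliced RNAs are cleared by nonsense-mediated decay. TUG1 was first described in the developing retina of rodents. H19 and KCNQ1OT1 come from the imprinted 11p15.5 region, where H19 also hosts a microRNA and KCNQ1OT1 runs antisense to KCNQ1. HULC is known as a transcript raised in liver cancer, and DLEU2 hosts the microRNAs miR-15a and miR-16-1. The kit selects polyadenylated RNA, so any form of a listed RNA without a poly(A) tail would be largely missed. Counts are per gene and do not separate the forms of NEAT1, MALAT1 or any other member. Strand is not marked by the kit either. Reads from an antisense or overlapping gene therefore cannot be told apart from those of KCNQ1OT1, DLEU2 or the other listed RNAs with such partners.

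The arsenite libraries held 27192636 and 27361110 counts and the controls 26965049 and 27481613. Replicates differed by more than sampling noise, with a chi-square over degrees of freedom of 29.6 between the arsenite libraries and 20.5 between the controls. In the edgeR quasi-likelihood fit of 14389 genes, 4397 (30.6%) had a Benjamini-Hochberg adjusted p under 0.05, 1693 higher and 2704 lower with arsenite. Of the 60675 rows, 28 had at most 3 counts over both controls and at least 10 in each arsenite library. These rows took 1446 and 1194 counts with arsenite and 10 and 7 counts in the controls, a contrast set by that rule. The reverse selection was not made. Whether RNA from another source contributed to any member was not tested. Hepatocyte and fibroblast markers were not checked, because names were paired with identifiers for the 10 listed RNAs alone.

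The arsenite libraries held less NORAD, TUG1, MALAT1 and NEAT1. These RNAs stood at 0.59 to 0.71 times the control level in CPM, counts scaled to the library total. GAS5 and SNHG1, also abundant, stood at 0.89 and 0.88 times it and were not called. In the edgeR fit, NORAD, TUG1, MALAT1 and NEAT1 stood at 0.62, 0.70, 0.74 and 0.75 times the control level. MALAT1 and NEAT1 were not called once each library's trend with gene length was removed (log2 fold changes of -0.25 and -0.05). DLEU2 was scarce in the controls and scarcer with arsenite, and H19 and HULC were close to 0 in all 4 libraries. In such bulk RNA, fewer cells making a transcript and less of it per cell cannot be told apart. The 10 RNAs together took 0.112% and 0.105% of all counts with arsenite and 0.156% and 0.151% in the controls.

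**Figure D1:**
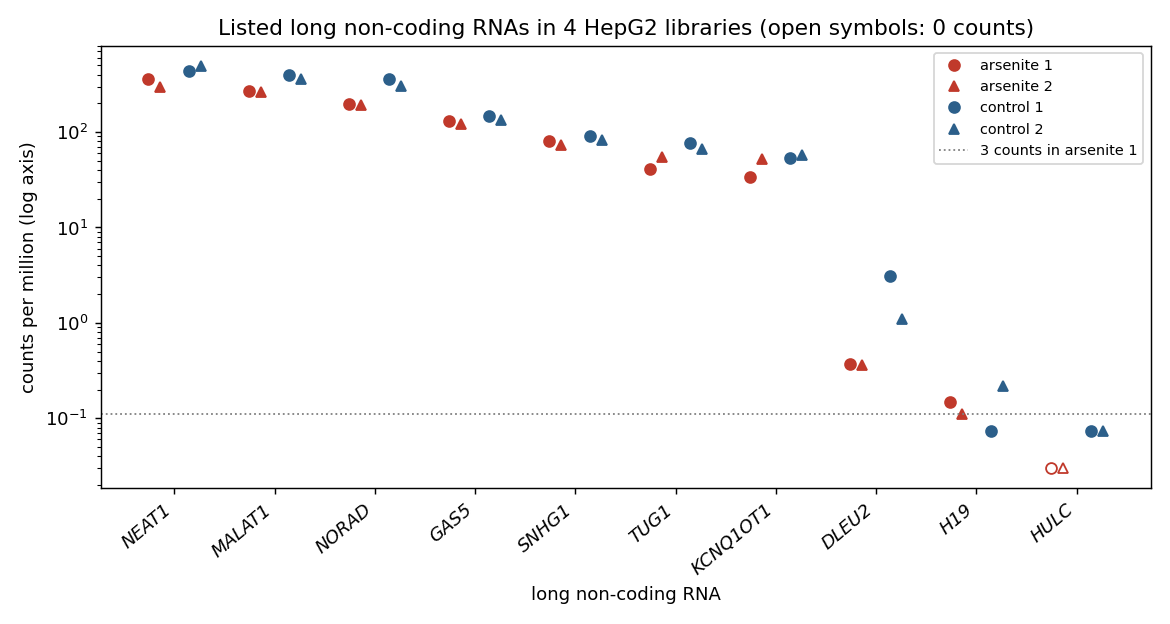
CPM of the 10 listed RNAs (log axis), with the arsenite libraries (red) left of the controls (blue), circles for replicate 1 and triangles for replicate 2, and open symbols for 0 counts drawn at the lower edge. NORAD lay at 196 and 194 CPM with arsenite and at 356 and 307 CPM in the controls. H19 lay around the dotted line that marks 3 counts, and HULC lay below that line in every library.

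In all, 8 of the 10 passed the filter on low counts. In CPM, both arsenite libraries lay below both controls for all 8, as they did for 41.2% of the genes tested. After TMM scaling, which corrects for a shift shared by most genes, this held for 5 of the 8, against 34.9% of the genes tested. The same 5, NEAT1, MALAT1, NORAD, TUG1 and DLEU2, passed the edgeR threshold, all lower with arsenite. Among all genes tested 18.8% were called lower, and 11.8% were called higher. With genes ordered by mean CPM into 5 equal groups, 12.2% were called lower in the most abundant group, which held NEAT1, MALAT1 and NORAD, 20.4% in the next, which held TUG1, and 11.1% in the least abundant, which held DLEU2. No listed RNA was called higher. The median log2 fold change of the 8 was -0.42, against -0.02 over all genes. For every member, the spread behind the SE came wholly from genes of like abundance, so no SE given here carries the difference between that RNA's own replicates. DLEU2 passed the filter through its counts in the controls, where it was higher, so its place among the 8 was tied to a difference. Scaling to library totals alone moved the median of all genes to -0.10. The same 5 members were then called lower, as were 23.1% of all genes.

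**Figure D2:**
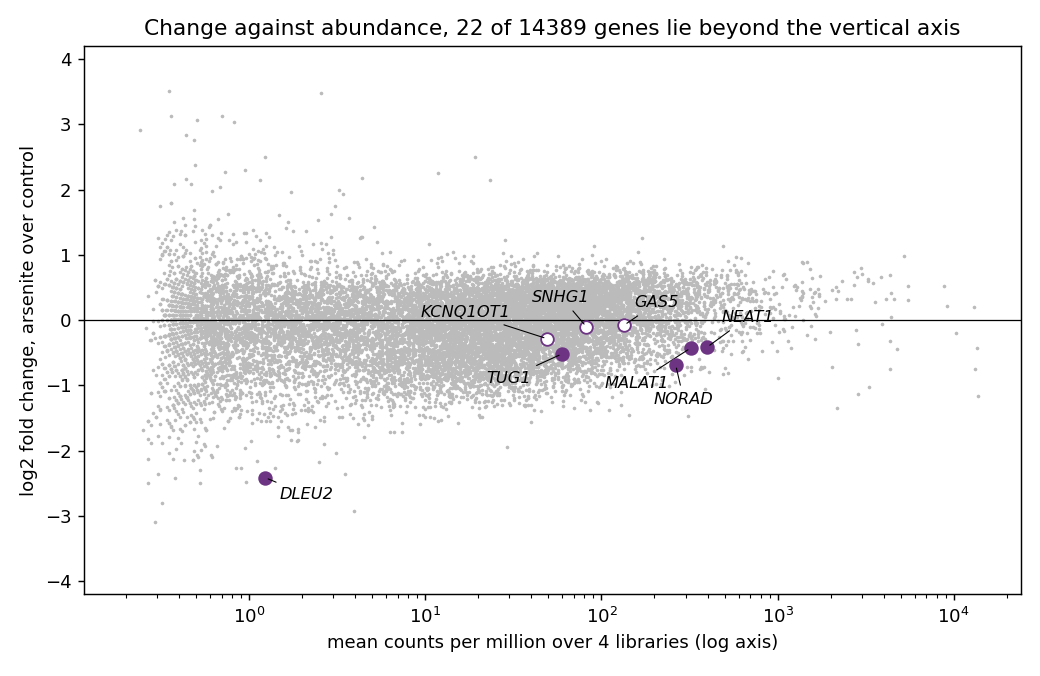
Log2 fold change (arsenite over control, edgeR) against mean CPM (log axis) for all 14389 genes tested (grey) and the 8 listed RNAs, filled where the adjusted p was below 0.05. NEAT1, MALAT1 and NORAD lie among the abundant genes at -0.42, -0.43 and -0.68, and DLEU2 lies at -2.41 among scarce genes.

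NORAD (ENSG00000260032), the Pumilio-binding RNA, showed the largest difference of the abundant members. It had 5340 and 5317 counts with arsenite and 9612 and 8433 in the controls. The arsenite libraries differed by 1.01-fold from each other and the controls by 1.16-fold, and the gap between the groups was 110 CPM. NORAD averaged 195 ± 1.45 CPM with arsenite and 332 ± 35.1 CPM in the controls (SD, n = 2 each). Its log2 fold change was -0.68 (SE 0.16), or 1.60-fold lower, and 13.5% of the genes tested had a fold change as low or lower. By rank in the library, NORAD was gene 924 and 926 with arsenite and gene 364 and 469 in the controls. Its log2 fold change stayed between -0.80 and -0.55 when each library was left out in turn, and the call was lost without control 1 (-0.55).

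MALAT1 (ENSG00000251562), the RNA of nuclear speckles, had 7392 and 7123 counts with arsenite and 10608 and 9979 in the controls. Those counts were 272 and 260 CPM with arsenite, against 393 and 363 CPM in the controls. The groups did not overlap, and replicates differed by at most 1.08-fold. The log2 fold change was -0.43 (SE 0.16), or 1.34-fold lower. It ran from -0.50 to -0.33 with 1 library left out, and the call held only without control 2. Without control 1, arsenite 1 or arsenite 2 the values were -0.35, -0.45 and -0.33, each short of the threshold. MALAT1 was also not called once each library's trend with gene length was removed (-0.25) or without the filter on low counts (-0.41).

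NEAT1 (ENSG00000245532), the paraspeckle scaffold, was the most abundant member by counts. It had 363 and 294 CPM with arsenite and 438 and 493 CPM in the controls. Arsenite 1 was nearer to the controls than arsenite 2 was, and the gap between the groups, 75.1 CPM, compared with SDs of 48.5 and 38.8 CPM. The log2 fold change was -0.42 (SE 0.16), or 1.34-fold lower. No call remained with any 1 library left out, where the values were -0.21 without arsenite 2, -0.57 without arsenite 1, -0.35 without control 2 and -0.48 without control 1. Once each library's trend with gene length was removed, NEAT1 was at -0.05 and not called. NEAT1 was also not called by DESeq2 (-0.39), with DESeq2-style size factors in edgeR (-0.39) or without the filter on low counts (-0.40).

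The ratio of NEAT1 to MALAT1 counts needs no library-wide scaling but keeps any trend with gene length. It was 1.33 and 1.13 with arsenite and 1.11 and 1.36 in the controls. The groups overlapped, and the means were 1.23 ± 0.14 and 1.23 ± 0.17 (SD, n = 2 each). Both nuclear-body RNAs were thus lower by a like factor in the means, while single libraries differed in the ratio by more than the group means did.

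TUG1 (ENSG00000253352) had 40.9 and 54.7 CPM with arsenite and 77.3 and 67.1 CPM in the controls. The groups were 12.4 CPM apart, and the arsenite libraries differed from each other by 1.34-fold. The log2 fold change was -0.51 (SE 0.18), or 1.43-fold lower. Leaving out 1 library gave -0.67 without arsenite 2, -0.63 without control 2, -0.39 without control 1 and -0.31 without arsenite 1, and the last 2 values were short of the threshold.

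The snoRNA hosts GAS5 and SNHG1 differed little between the groups. GAS5 (ENSG00000234741) had 130 and 123 CPM with arsenite and 149 and 134 CPM in the controls. SNHG1 (ENSG00000255717) had 79.9 and 73.8 CPM with arsenite and 91.5 and 83.3 CPM in the controls. In CPM the groups were separate by 3.98 CPM for GAS5 and by 3.34 CPM for SNHG1, less than the difference between the libraries of either group. After TMM scaling they overlapped, with a log2 fold change of -0.08 (SE 0.17) for GAS5 and -0.10 (SE 0.17) for SNHG1, neither of them called. The sign turned for GAS5 without control 1 (0.02) and without arsenite 2 (0.03), and for SNHG1 without arsenite 2 (0.02).

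The ratio of GAS5 to SNHG1 counts was steady across libraries, at 1.63 and 1.67 with arsenite and 1.63 and 1.61 in the controls. Set against GAS5, NORAD was lower with arsenite, at 1.51 and 1.58 NORAD counts per GAS5 count, against 2.39 and 2.29 in the controls. MALAT1 likewise had 2.09 and 2.12 counts per GAS5 count with arsenite and 2.64 and 2.71 in the controls. These within-library ratios are free of a library-wide scaling factor but keep any trend with gene length. For both RNAs the groups did not overlap. With each library's length trend removed, NORAD was at -0.62 and called, MALAT1 at -0.25 and not called, and GAS5 at -0.08. For NEAT1 the ratio to GAS5 was 2.79 and 2.39 with arsenite and 2.94 and 3.68 in the controls, where the nearest values were closer to each other than the controls were.

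KCNQ1OT1 (ENSG00000269821), the antisense RNA of the imprinted KCNQ1 domain, had 33.6 and 52.4 CPM with arsenite and 52.9 and 58.2 CPM in the controls. Arsenite 1 was the low library, and arsenite 2 came within 0.437 CPM of a control. Its arsenite replicates differed by 1.56-fold, the widest of the members with at least 10 counts in an arsenite library. The log2 fold change was -0.29 (SE 0.18), not called, and without arsenite 1 it was 0.01.

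DLEU2 (ENSG00000231607), the host of miR-15a and miR-16-1, had 10 and 10 counts with arsenite and 83 and 30 counts in the controls. That was 0.368 and 0.366 CPM with arsenite, against 3.08 and 1.09 CPM in the controls. The groups did not overlap, but the controls differed by 2.82-fold from each other. The log2 fold change was -2.41 (SE 0.37), with 0.0556% of the genes tested as low or lower. That share is tied to the filter, which DLEU2 passed through its higher control counts. It was taken over genes of every abundance, and not among scarce genes alone. It was -1.46 without control 1 and -2.99 without control 2. This SE does not carry the difference between the DLEU2 controls.

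H19 (ENSG00000130600) had 4 and 3 counts with arsenite and 2 and 6 in the controls, and the groups overlapped. HULC (ENSG00000251164) had 0 and 0 counts with arsenite and 2 and 2 in the controls. A count of 0 allows up to 3 counts, or 0.110 CPM, in each arsenite library, above the 0.0742 and 0.0728 CPM of the controls. No difference in HULC was therefore detectable at this depth, and neither RNA was tested in the fit. These limits cover counting error alone.

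**Figure D3:**
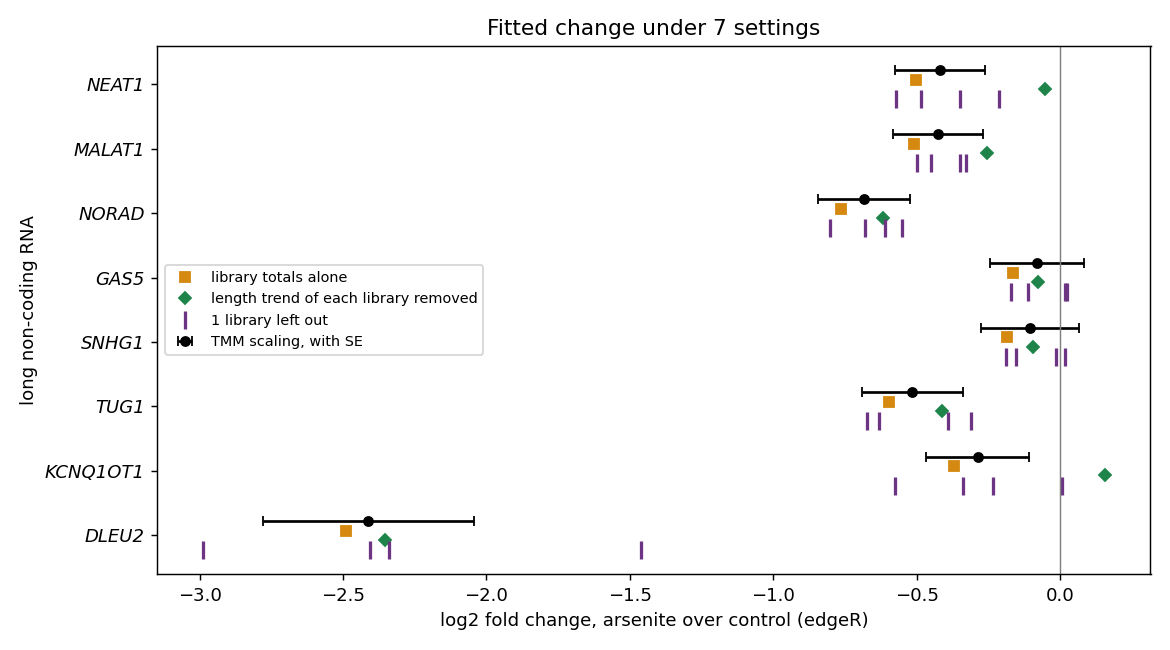
Log2 fold change (arsenite over control, edgeR) of the 8 tested RNAs: TMM scaling with its SE (black), library totals alone (orange), after removal of each library's length trend (green), and with each library left out (purple bars). NORAD lies left of 0 in every setting drawn, whereas KCNQ1OT1 reaches 0.16 and NEAT1 -0.05 once the length trend is removed.

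Gene length moved with the libraries. Gene lengths, rebuilt from the deposited count and RPKM tables, ran over the tested members from 3631 bp for GAS5 and 3756 bp for SNHG1 to 22767 bp for NEAT1 and about 91667 bp for KCNQ1OT1. Over 11300 genes, the deviation of a library from the mean of the 4 correlated with gene length at a Spearman's rho of -0.334 in arsenite 1 and 0.082 in arsenite 2, against 0.208 in control 1 and 0.124 in control 2. Genes are not independent replicates, and these values describe the libraries. In the longest of 10 length groups, the median log2 deviation was -0.26 in arsenite 1 and 0.04 in arsenite 2, against 0.17 in control 1 and 0.05 in control 2.

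With each library's length trend removed, which would remove a length effect of arsenite too, 3 of the 8 were called lower, NORAD at -0.62, TUG1 at -0.41 and DLEU2 at -2.35. Of all genes tested, 17.8% were called lower in that fit. MALAT1, at 8755 bp, moved to -0.25 and NEAT1 to -0.05, both without a call, and KCNQ1OT1 turned to 0.16. GAS5 stayed at -0.08 and SNHG1 at -0.09. The trend is thinly covered at that end, since 32 genes were as long as NEAT1 or longer and 2 as long as KCNQ1OT1 or longer, these RNAs included. NEAT1 deviated from the mean of the 4 libraries by -0.05 in arsenite 1 and -0.38 in arsenite 2. KCNQ1OT1 deviated by -0.47 in arsenite 1 and 0.15 in arsenite 2. The part that the length trend had in the differences was not tested further.

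**Figure D4:**
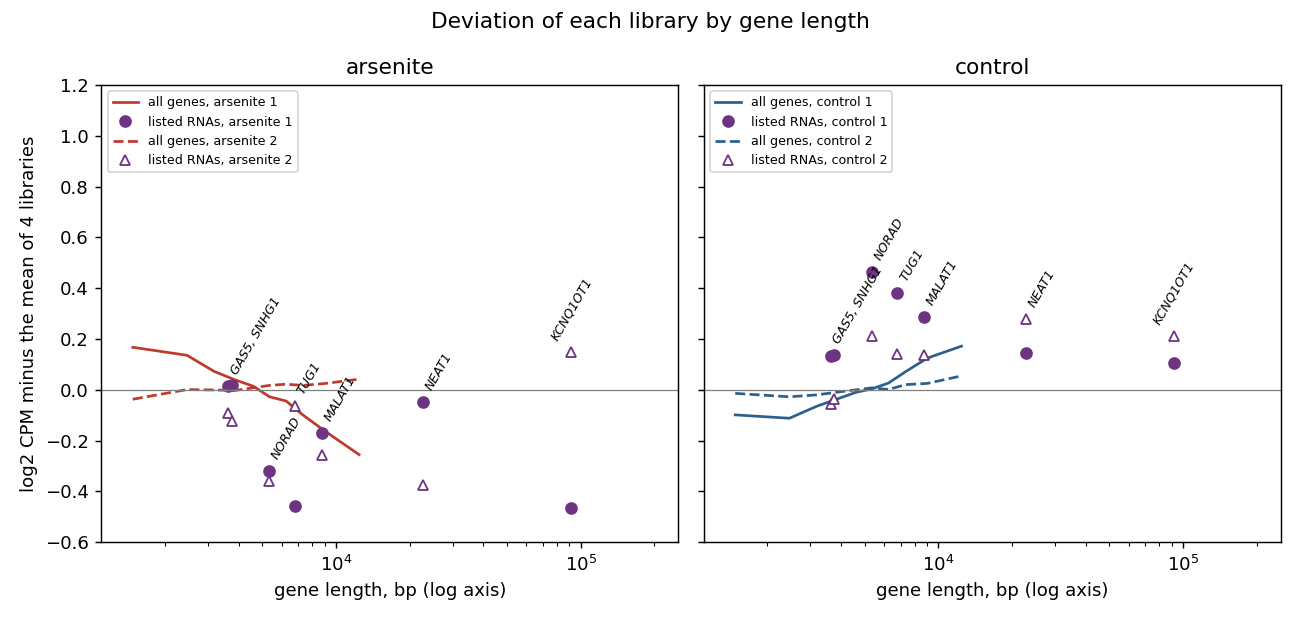
Log2 CPM of each library minus the mean of the 4 libraries, against gene length (log axis), for arsenite (left panel) and control (right panel). Lines are medians in 10 length groups of the 11300 genes with a rebuilt length and a mean log2 CPM above 1. Points are 7 listed RNAs, and DLEU2 lies outside the axis and is not drawn. The line of arsenite 1 falls to -0.26 for the longest genes, and NORAD, at 5339 bp, lies at -0.32 and -0.36 in the arsenite libraries, where the lines are near 0.

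Per length, the order of levels was set with RPKM, CPM of the library's own total divided by the gene length in kilobases. NORAD was highest with arsenite, at 36.6 ± 0.27 RPKM, then GAS5 at 34.8 ± 1.39, MALAT1 at 30.4 ± 0.93, SNHG1 at 20.5 ± 1.17, NEAT1 at 14.4 ± 2.13 and TUG1 at 7.03 ± 1.43 RPKM (SD, n = 2 each). In the controls NORAD was highest too, at 62.1 ± 6.57 RPKM, then MALAT1 at 43.2 ± 2.45, GAS5 at 39.0 ± 2.93, SNHG1 at 23.3 ± 1.55, NEAT1 at 20.4 ± 1.70 and TUG1 at 10.6 ± 1.06 RPKM (SD, n = 2 each). MALAT1 and GAS5 thus changed places, but in the controls they lay 4.23 RPKM apart, less than the sum of their SDs, 5.37 RPKM. SNHG1 and NEAT1 in the controls also lay within the sum of their SDs. KCNQ1OT1, the longest, averaged 0.470 ± 0.145 RPKM with arsenite and 0.606 ± 0.041 RPKM in the controls. DLEU2 averaged 0.0718 RPKM with arsenite and 0.409 ± 0.275 RPKM in the controls (SD, n = 2), where its distance from KCNQ1OT1 was less than the sum of their SDs. NEAT1 thus led by counts and stood below SNHG1 per rebuilt gene length in both groups. Each gene had a single rebuilt length, which need not be that of the transcripts present. The order per transcript was not tested.

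The RPKM table as deposited gives another picture for some of these RNAs. The divisor behind its values cycles over 14 rows, so that just 7.14% of the rows were scaled to the total of the library they describe. Read as deposited, GAS5 had 31.8 and 49.6 RPKM with arsenite and 35.0 and 31.0 RPKM in the controls, a ratio of means of 1.23. With each library's own total the ratio was 0.89. SNHG1 as deposited had 31.0 and 23.8 RPKM with arsenite and 20.1 and 19.9 RPKM in the controls, a ratio of 1.37 in place of 0.88. MALAT1 as deposited had a ratio of 0.97 in place of 0.70. For NORAD the ratios were close, at 0.61 as deposited and 0.59 with own totals.

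**Figure D5:**
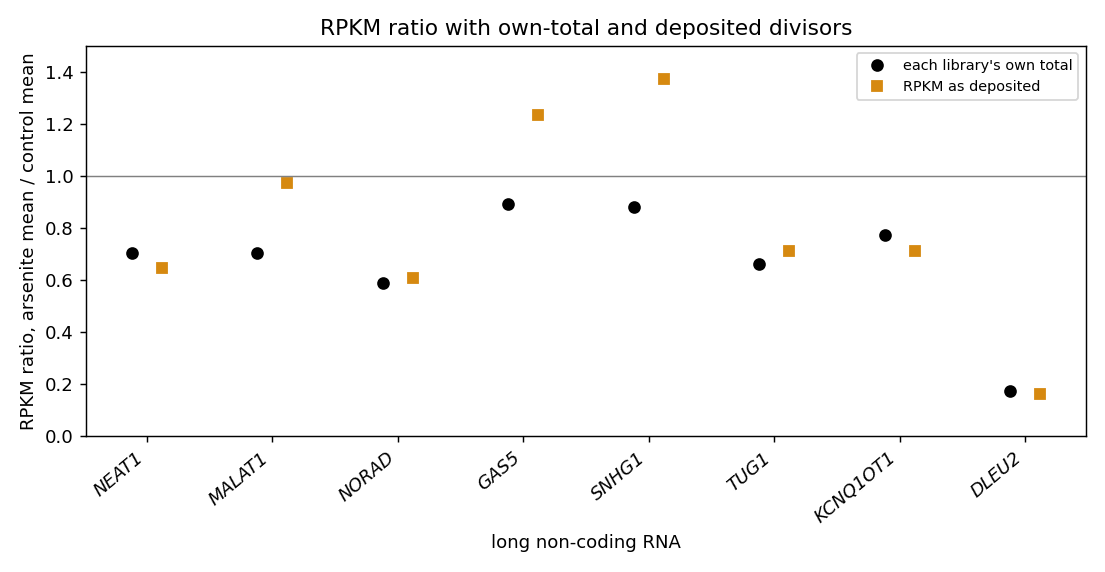
Ratio of the mean RPKM in arsenite libraries to that in controls for 8 listed RNAs, with each library's own total (black) and as deposited (orange). GAS5 and SNHG1 stand above 1 as deposited, at 1.23 and 1.37, and below 1 with own totals, at 0.89 and 0.88.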

How the data were processed

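Per the submitters' processing notes, featureCounts 1.4.6-p4, STAR 2.4.1d and bcl2fastq 1.8.4 were used, with GRCh38, in unstated roles. The treatment of overlapping genes is not stated there. The authors deposited raw counts per gene and an RPKM table, per the file headers both under human Ensembl identifiers. In the NIH3T3 columns 12946 rows repeat earlier rows, and these columns gave no expression value here. Of the 14 divisors in the deposited RPKM table, 8 equal column totals within 0.01%; the other 6 equal none. Gene lengths came from both tables and these divisors, and RPKM was recomputed with each library's own total.

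Groups follow the labelled treatment. Replicates were numbered in accession order. HepG2 counts were fitted in edgeR 4.0.16 (R 4.3.3) with filterByExpr (minimum count 10), TMM, the two-sided quasi-likelihood test and Benjamini-Hochberg adjustment over all 14389 genes at 0.05. The fit was tested on simulated counts. Alternatives changed the scaling (library totals, upper quartile, RLE), the low-count filter (none, or mean CPM 5 and above), the dispersion (robust) and the threshold (0.10, or glmTreat at 1.2-fold). Others had each library left out in turn (a lone sample taken to vary like the other group) or used DESeq2 1.42.0 or limma 3.58.1. Limma was run with voom and on RPKM. For rows averaging 0.5 RPKM or more, log2(RPKM + 1) and log2(RPKM + 0.1) were used. Without a filter, log2(RPKM + 1) alone was used. The length trend was a loess curve (span 0.5) per library, fitted where the mean log2 CPM exceeded 1 (prior count 2).

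The members and lists were chosen with earlier results of these data known. The naming rule took the 10 listed RNAs and called members of 13 gene lists. The lists and promoter motifs were not used, because the name and sequence tables here are of mouse and 0 identifiers matched.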

Additional observations from a re-analysis of the deposited data

How the results depend on the processing

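Of 18 alternatives, 13 left the 4397 called genes within 1.5 times. A test against a fold of 1.2 called 2498, and RPKM without a filter called 0 (5632 at an unadjusted p under 0.05, limma). With 3 libraries the count ran between 860 (without arsenite 1) and 4504 (without control 2), with 1361 without control 1 and 2923 without arsenite 2. Library totals alone made the higher share 25.4% in place of 38.5%, and removing the length trend made it 49.5%. Of the listed RNAs, 5 were called; 3 were called without the filter on low counts, 3 with the length trend removed, 2 against a fold of 1.2, 0 with unfiltered RPKM, and 1 (without control 1) to 4 (without control 2) with 1 library left out. Over all genes, 4397 of 14389 were called in the main fit and 2498 of 14389 against a fold of 1.2. Without the filter on low counts 3774 of 27146 were called, and with unfiltered RPKM 0 of 27145. With the length trend removed 5068 of 14389 were called, more than in the main fit, while fewer listed RNAs were. Where a library was left out, fewer samples entered. The cause of the changed counts was not tested. Of 18 alternatives each, NORAD kept its call in 16, TUG1 in 14, MALAT1 in 11 and NEAT1 in 8, and DLEU2 in 14 of the 15 that tested it. These 5 kept their direction in each. KCNQ1OT1 reversed to 0.16 with the length trend removed. With 1 library left out, KCNQ1OT1 ran from -0.58 (without arsenite 2) to 0.0073 (without arsenite 1), GAS5 from -0.17 (without control 2) to 0.026 (without arsenite 2; 0.018 without control 1) and SNHG1 from -0.19 (without control 2) to 0.019 (without arsenite 2). GAS5, SNHG1 and KCNQ1OT1 were called in none. Deposited RPKM moved 15 of 20 group levels by more than 1 SD. Alternatives for the gene lists were not run, for want of names. No paired analysis was possible because the labels give no replicate numbers. Low counts limit H19 and HULC, which had at most 6 counts in a library. Why their counts were low was not tested.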
